A study of Mus musculus with 4 samples.

Results

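The genes described here are *Ifng* and 8 regulators of the T helper 1 (TH1) program: *Tbx21*, *Il12rb2*, *Stat4*, *Hlx*, *Runx3*, *Eomes*, *Zeb2* and *Hopx*. They were taken from the deposited expression table by their symbols. The table has 13265 genes, 8 of the 9 symbols have a row in it, and *Hlx* was not analysed here. The values come from droplet-based single-cell RNA sequencing of small intestinal YFP+CD4+ T cells from mice aged 7 to 8 months, isolated by flow cytometry. All mice carried an *Il17a*-driven Cre recombinase and a YFP reporter behind a floxed stop cassette in *Rosa26*, so YFP marks cells that expressed *Il17a* at some time, whether or not they still do. TGFβR-KO cells lack the type II TGFβ receptor through Cre-mediated deletion of floxed *Tgfbr2*, TGFβR-CA cells express a constitutively active type I receptor (*Tgfbr1*) once Cre removes its stop cassette, and TGFβR-WT cells carry neither allele. The table holds 2975 TGFβR-KO, 1007 TGFβR-WT and 1098 TGFβR-CA cells, each with a cluster name from the authors. The 4 samples are pools of mice, 2 of them TGFβR-WT and 1 for each of the other conditions, and nothing in the table ties a TGFβR-WT cell to its sample. The TGFβR-WT cells are therefore given as 1 group, and beside it are shown the 2 sets that the suffix of the cell names makes, the larger with 709 and the smaller with 298 cells. TGFβR-KO and TGFβR-CA are 1 sample each and the TGFβR-WT cells cannot be split by sample, so there is no replicate check on any difference between conditions, and the report gives sizes and counting intervals and no p-values.

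TH1 cells defend against intracellular microbes and make interferon-γ (IFNγ, encoded by *Ifng*). IL-12 binds a receptor whose inducible chain is IL-12Rβ2 (*Il12rb2*), which activates STAT4, and STAT4 acts with the T-box factor T-BET (*Tbx21*), the defining factor of the lineage, on the *Ifng* locus. RUNX3 is a partner of T-BET, EOMES is a second T-box factor best known from cytotoxic CD8 T cells and natural killer cells, ZEB2 acts downstream of T-BET in terminal effector cells, and HOPX is a homeodomain-only protein found in long-lived TH1 effector cells. TH17 cells, which make IL-17A and help guard the gut barrier, can lose IL-17A and gain IFNγ, and TGFβ is known to repress *Tbx21* and *Ifng* in T cells.

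In TGFβR-KO cells, *Ifng*, *Tbx21* and *Il12rb2* exceeded the level of both TGFβR-WT sets by the size limit used below. These 3 genes are shown by the 250 bases before their transcription start (RefSeq, GRCm38.p6). Sequence further from the start or within the gene, where factors can also act, was not searched. *Runx3* is added for a repeated match to the motif of its own family. A window of *Zeb2* holds a repeated AP-1 match and is not shown. Other *Zeb2* windows hold a STAT match (TTCTGTGAA, starting at -147 and at -173) and are not shown either. The windows lie at chr10:118440796-118441045 on the plus strand for *Ifng*, chr11:97115332-97115581 on the minus strand for *Tbx21*, chr6:67376189-67376438 on the minus strand for *Il12rb2* and chr4:135120395-135120644 on the plus strand for the distal *Runx3* start. Capitals mark matches, on either strand, to 4 motifs: T-box (GGTGTGA), RUNX (TGTGGTT), STAT (TTCNNNGAA) and AP-1 (TGANTCA).
Ifng: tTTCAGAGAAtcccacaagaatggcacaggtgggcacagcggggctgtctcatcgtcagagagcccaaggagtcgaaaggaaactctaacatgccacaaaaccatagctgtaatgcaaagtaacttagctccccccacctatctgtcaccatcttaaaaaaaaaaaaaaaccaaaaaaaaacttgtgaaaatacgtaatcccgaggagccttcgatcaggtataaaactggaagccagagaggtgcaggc
Tbx21: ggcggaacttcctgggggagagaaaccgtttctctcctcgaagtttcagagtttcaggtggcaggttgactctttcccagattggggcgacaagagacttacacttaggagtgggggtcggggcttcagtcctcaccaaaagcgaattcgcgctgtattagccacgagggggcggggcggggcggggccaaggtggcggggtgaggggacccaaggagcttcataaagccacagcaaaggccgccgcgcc
Il12rb2: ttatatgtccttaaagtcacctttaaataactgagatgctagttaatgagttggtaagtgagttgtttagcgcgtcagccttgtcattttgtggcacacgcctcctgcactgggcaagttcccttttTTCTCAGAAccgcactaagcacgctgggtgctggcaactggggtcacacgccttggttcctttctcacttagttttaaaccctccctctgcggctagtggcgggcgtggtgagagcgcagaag
Runx3: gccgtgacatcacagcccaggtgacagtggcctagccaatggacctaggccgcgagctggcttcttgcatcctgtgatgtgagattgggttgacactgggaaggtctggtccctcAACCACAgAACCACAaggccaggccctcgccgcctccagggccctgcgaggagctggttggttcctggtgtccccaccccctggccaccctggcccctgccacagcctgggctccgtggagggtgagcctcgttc
*Ifng* has a STAT match (TTCAGAGAA) that starts at position -249 from the gene start, and *Il12rb2* has one (TTCTCAGAA) that starts at -123. *Runx3* has a pair of RUNX matches (AACCACA, the motif on the other strand) at -135 and -127, which do not overlap. The *Tbx21* window holds none of the 4 sets of letters. Over the 32851 promoter windows of 250 bases, 7.02% hold the STAT letters, 4.40% the RUNX letters, 3.33% the T-box letters and 6.75% the AP-1 letters, so a single match is common, and a match is a description of letters, not a binding site.

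On mm10 (GENCODE M21), *Ifng* lies at chr10:118441046-118445892, *Tbx21* at chr11:97098071-97115331, *Il12rb2* at chr6:67291318-67376188, *Stat4* at chr1:51987148-52107189, *Runx3* at chr4:135120652-135177990, *Eomes* at chr9:118478212-118486132, *Zeb2* at chr2:44983632-45117395 and *Hopx* at chr5:77086988-77115121. The 3′ end of *Il12rb2* overlaps *Serbp1* on the opposite strand, *Zeb2* overlaps *Zeb2os*, *Hopx* overlaps *Hopxos*, *Runx3* overlaps *Gm16224* and *Eomes* overlaps *Gm33460*, each antisense. *Ifng* contains the gene model *Gm49751* on its own strand and *Stat4* shares sequence with *Gm28177*. Whether the counting used strand is not given in the sources used here, so whether reads from these pairs were told apart was not checked.

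The corrected counts had already been set to a common depth, so they do not show whether the original depths were similar. The summed corrected UMIs of a cell had a median of 3794 in TGFβR-KO cells, 3659 in TGFβR-WT cells (larger set 3440, smaller set 3984.5) and 3918 in TGFβR-CA, and the median number of detected genes was 1488, 1533 and 1555. At least 1 of 5 markers listed for CD4 T cells was found in 99.9% of cells of each condition. Of these, *Cd3e*, *Cd3g*, *Trac* and *Lck* are shared with other T cells. *Cd4* itself was found in 70.5% of TGFβR-KO, 75.1% of TGFβR-WT and 75.5% of TGFβR-CA cells. Markers of other cells were sparse except for the myeloid list (49.0% of TGFβR-KO, 48.7% of TGFβR-WT and 50.8% of TGFβR-CA cells), which came almost wholly from *Cst3*. Epithelial markers moved with condition, in 4.10% of TGFβR-KO, 0.695% of TGFβR-WT and 2.46% of TGFβR-CA cells, and their part in the results was not tested. A barcode occurred in more than 1 set for 16 barcodes, 14 of them in TGFβR-KO and also in the larger set of TGFβR-WT. The level of *Tgfbr2*, in corrected UMIs per 10000 corrected UMIs of a group, was 1.48 in TGFβR-KO cells, 1.73 in TGFβR-WT cells and 1.78 in TGFβR-CA cells. Where the *Tgfbr2* reads lie relative to the deleted part is not given, so these levels do not check the deletion. *Tgfbr1* was lower in the cells labelled TGFβR-CA (0.792) than in TGFβR-WT as a whole (1.16), whose larger set was at 0.367 and smaller set at 2.79, so TGFβR-CA stands throughout for the cells labelled as such.

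Over all cells, *Ifng*, *Tbx21* and *Il12rb2* set the TGFβR-KO cells apart from the others, while *Stat4* was at a similar level in the 3 conditions. A gene was counted as higher or lower when its ratio to TGFβR-WT, after 0.1 per 10000 was added to both levels, reached 1.5 in either direction. Of the 8 genes with a row, 7 had at least 50 corrected UMIs over all cells, *Eomes* being the one below. TGFβR-KO cells held 203 of the 216 *Il12rb2* UMIs and 329 of the 367 *Tbx21* UMIs. These 2 genes thus reached the minimum only through the condition in which they were high, and their place in the counts below depends on that. The other genes were filtered by the same sum. Of the 7, 6 were higher in TGFβR-KO, 0 were lower, and *Stat4* lay between, where 2.74% of the 9810 genes with as many UMIs were higher and 4.7% lower. The median ratio of the 7 genes was 1.58, beside 0.918 over all 9810 genes. Only 3 of the 6, *Ifng*, *Tbx21* and *Il12rb2*, were higher than each of the TGFβR-WT sets taken alone.

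*Ifng*, the cytokine gene of the group, had a level of 4.26 in TGFβR-KO cells, 0.616 in TGFβR-WT cells (larger set 0.571, smaller set 0.709) and 0.313 in TGFβR-CA. The TGFβR-KO cells were above, and the TGFβR-CA cells below, both TGFβR-WT sets. The ratio was 6.09 for TGFβR-KO (6.498 and 5.39 against the larger and the smaller set) and 0.577 for TGFβR-CA. *Ifng* was detected in 778 TGFβR-KO cells (26.2%, exact Clopper-Pearson 95% confidence interval 24.6 to 27.8), 86 TGFβR-WT cells (8.54%, 6.89 to 10.4) and 58 TGFβR-CA cells (5.28%, 4.04 to 6.78). Intervals cover counting error over cells only. With each cell thinned to 3000 corrected UMIs, the shares were 23.5%, 7.52% and 4.37%, in the same order. These UMIs had already been corrected to a common depth, so thinning cannot check a difference in original depth.

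*Tbx21*, which encodes T-BET, followed the same order with far fewer molecules. Its level was 0.287 in TGFβR-KO cells, 0.0538 in TGFβR-WT cells (0.0519 and 0.0577 in the larger and the smaller set) and 0.0411 in TGFβR-CA, a ratio of 2.51 for TGFβR-KO and 0.917 for TGFβR-CA. The added 0.1 exceeds the TGFβR-WT level, so this ratio understates the change, and the share of cells shows it more directly: 256 TGFβR-KO cells (8.61%, 7.62 to 9.67) and 16 TGFβR-WT cells (1.59%, 0.911 to 2.57), a ratio of shares of 5.42 (95% interval 3.27 to 9.62). In TGFβR-CA it was found in 13 cells (1.18%, 0.632 to 2.02), an interval that overlaps that of TGFβR-WT.

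*Il12rb2*, the inducible IL-12 receptor chain, was nearly absent outside TGFβR-KO. It was detected in 154 TGFβR-KO cells (5.18%, 4.41 to 6.03), 8 TGFβR-CA cells (0.729%, 0.315 to 1.43) and a single TGFβR-WT cell of 1007 (0.0993%, 0.00251 to 0.552), which held 4 UMIs. The levels were 0.177 in TGFβR-KO cells, 0.0108 in TGFβR-WT cells (larger set 0, smaller set 0.0330) and 0.0205 in TGFβR-CA, and the ratio was 2.5 for TGFβR-KO and 1.09 for TGFβR-CA. With 1 positive TGFβR-WT cell, the ratio of shares (52.1) has an interval from 9.22 to 2072. *Stat4*, the transcription factor that this receptor activates, did not move with it: its level was 1.31 in TGFβR-KO cells, 1.18 in TGFβR-WT cells (1.32 and 0.882 in the larger and the smaller set) and 1.27 in TGFβR-CA. The TGFβR-KO and TGFβR-CA levels lay between those of the TGFβR-WT sets. *Stat4* was found in 36.8% of TGFβR-KO, 31.9% of TGFβR-WT and 36.4% of TGFβR-CA cells.

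*Runx3*, the T-BET partner, also differed in order across all 3 conditions. Its level was 1.91 in TGFβR-KO cells, 1.17 in TGFβR-WT cells (1.06 and 1.41) and 0.653 in TGFβR-CA, and it was found in 44.3%, 28.0% and 18.1% of cells. The TGFβR-CA ratio was 0.590, 0.648 against the larger and 0.499 against the smaller set, so it was lower than both. The TGFβR-KO ratio was 1.57, and 1.33 against the smaller set, where it misses the limit. *Zeb2* was found in 6.52% of TGFβR-KO cells (194 cells, 5.66 to 7.47), 3.18% of TGFβR-WT cells (3.81% and 1.68% in the larger and the smaller set) and 3.1% of TGFβR-CA cells. Its level ratio for TGFβR-KO was 1.51, and 1.32 against the larger set.

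*Hopx* had a level of 1.82 in TGFβR-KO cells, 1.11 in TGFβR-WT cells and 1.47 in TGFβR-CA cells, and its spread between the TGFβR-WT sets (0.874 in the larger, 1.61 in the smaller) was as wide as the difference between conditions. The TGFβR-KO ratio of 1.58 fell to 1.12 against the smaller set. *Eomes* was found in 12 TGFβR-KO cells (0.403%, 0.209 to 0.704) and in 0 of 1007 TGFβR-WT and 0 of 1098 TGFβR-CA cells, which allow shares of up to 0.298% and 0.273%. Of these 12 cells 8 were in the CTL cluster, 3 in TR-TFH and 1 in GC-TFH, and 3 of the 12 held an epithelial marker, whose part in the result was not tested.

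**Figure D1:**
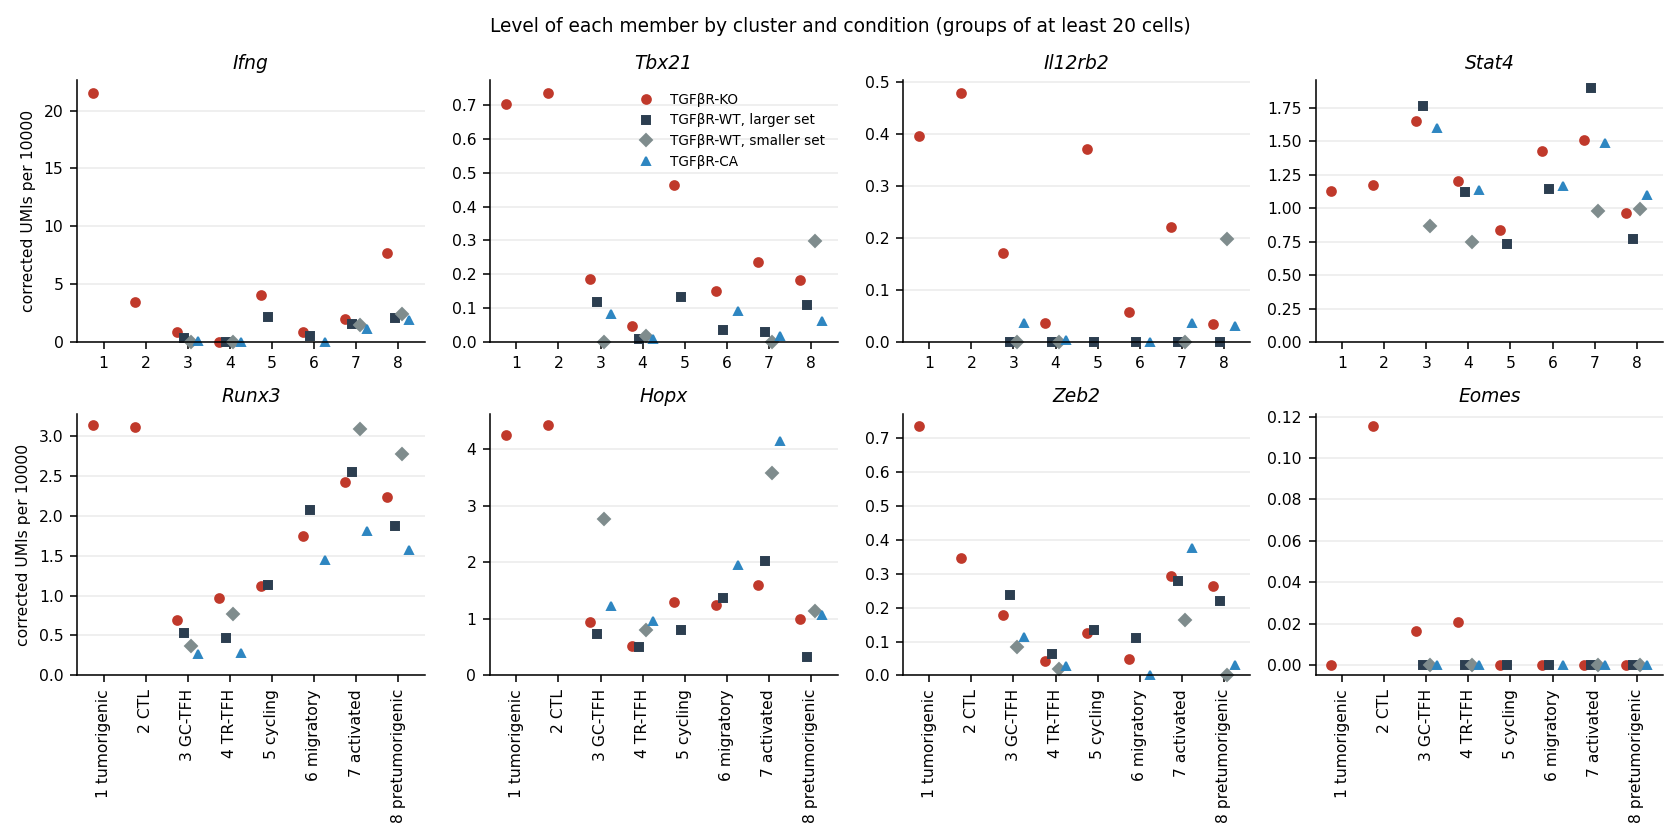
Level of each gene (corrected UMIs per 10000, linear axes that differ between panels) by cluster for TGFβR-KO, the larger and the smaller TGFβR-WT set and TGFβR-CA, in groups of at least 20 cells, without error bars because each point is 1 group. *Ifng* stands at 21.5 in the TGFβR-KO tumorigenic cluster, above every other group, *Tbx21*, *Il12rb2*, *Runx3* and *Hopx* are about as high in the CTL as in the tumorigenic cluster, and *Stat4* lies between 0.836 and 1.65 in TGFβR-KO.

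The authors named 8 clusters: tumorigenic (cluster 1), cytotoxic (CTL, 2), germinal centre TFH (GC-TFH, 3), tissue-resident TFH (TR-TFH, 4), cycling (5), migratory stem cell-like (6), activated (7) and pretumorigenic (8). They were built from the expression of these same cells, so differences between clusters are description. The tumorigenic cluster held 361 TGFβR-KO cells against 5 TGFβR-WT and 2 TGFβR-CA cells, and the CTL cluster 321 against 13 and 3, so neither can be compared between conditions, and cluster makeup differs with condition. To separate the makeup from levels within clusters, the TGFβR-KO cluster levels were averaged with the TGFβR-WT cluster shares. The *Ifng* ratio then fell from 6.09 to 2.17, *Tbx21* from 2.51 to 1.62 and *Il12rb2* from 2.5 to 1.90, and these 3 stayed past the limit, which 1.28% of all genes passed upwards in that comparison. *Runx3* (1.10), *Zeb2* (1.08) and *Hopx* (0.862) no longer passed it, and *Stat4* was at 1.10. *Hopx* turned in direction, and its highest TGFβR-KO levels lie in the tumorigenic and CTL clusters.

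**Figure D2:**
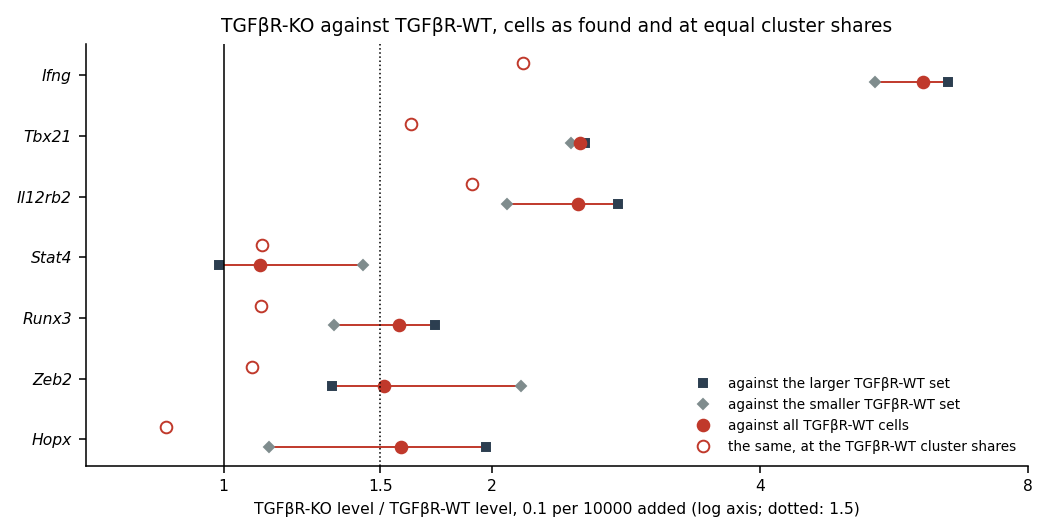
Ratio of TGFβR-KO to TGFβR-WT level for the 7 genes with at least 50 corrected UMIs, on a log axis with 0.1 per 10000 added, for cells as found (filled circles, with squares and diamonds for the larger and the smaller TGFβR-WT set) and at the TGFβR-WT cluster shares (open circles). *Ifng*, *Tbx21* and *Il12rb2* stay right of the dotted limit of 1.5 in every version, while *Runx3*, *Zeb2* and *Hopx* drop to between 0.862 and 1.10 at equal cluster shares.

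*Ifng* molecules came mainly from the tumorigenic cluster. It made up 12.1% of TGFβR-KO cells, 27.9% of the cells with *Ifng* and 62.3% of the *Ifng* UMIs (3043 of 4887), while the pretumorigenic cluster gave 13.6% and the CTL cluster 8.51%. In the tumorigenic cluster 60.1% of cells (54.9 to 65.2) held *Ifng*, at a mean of 14.0 UMIs per positive cell. In the CTL cluster nearly as many cells were positive (47.4%, 41.8 to 53.0) at a mean of only 2.74. The clusters thus differed more in molecules per positive cell than in the share of positive cells. Cells with 10 or more *Ifng* UMIs numbered 116 in TGFβR-KO, 87 of them in the tumorigenic and 16 in the pretumorigenic cluster, against 4 TGFβR-WT and 2 TGFβR-CA cells. The 78 TGFβR-KO cells with the most *Ifng*, 10% of the positive cells, held 56.3% of its UMIs, and the highest cell held 117. For TGFβR-WT and TGFβR-CA cells, the activated and pretumorigenic clusters gave most of the fewer molecules, 29.3% and 29.7% of 229 UMIs in TGFβR-WT and 43.8% and 44.5% of 137 UMIs in TGFβR-CA.

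Among clusters with at least 30 cells of both conditions, the pretumorigenic and GC-TFH clusters had the highest *Ifng* ratios. The pretumorigenic *Ifng* level was 7.66 in TGFβR-KO cells, 2.32 in TGFβR-WT cells (2.09 in the larger set of 27 cells, 2.43 in the smaller set of 52) and 1.91 in TGFβR-CA, a TGFβR-KO ratio of 3.21 in a cluster where 9.34% of genes reached the limit upwards. The share of positive cells differed less (41.7%, 35.3 to 48.4, in TGFβR-KO and 29.1%, 19.4 to 40.4, in TGFβR-WT), and these intervals overlap. The ratio was 3.06 in GC-TFH cells, where TGFβR-WT had 6 positive cells and 2.79% of genes passed the limit (4.02 with nothing added, above the 3.30 of the pretumorigenic cluster), 2.10 in cycling cells (9.34% of genes), 1.72 in migratory cells (4.34% of genes), 1.30 in activated cells and 1.05 in TR-TFH cells. The migratory ratio was 1.43 against the larger TGFβR-WT set alone, below the limit. The GC-TFH ratio was 2.30 against the larger set alone. The smaller set had 58 GC-TFH, 133 TR-TFH, 16 migratory and 4 cycling cells, with an *Ifng* level of 0 in each of these clusters. In TGFβR-KO, 3 of the 28 GC-TFH cells with *Ifng* held 49.1% of the 106 *Ifng* UMIs of that cluster. In the TR-TFH cluster *Ifng* was found in 1.35% of TGFβR-KO (0.544 to 2.76), 1.09% of TGFβR-WT and 0.540% of TGFβR-CA cells. No cell type known to lack *Ifng* is in the table, and this cluster, with a median of 1327 detected genes in its TGFβR-KO cells without *Ifng*, gives the lowest share, which free RNA in the droplets cannot exceed there.

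**Figure D3:**
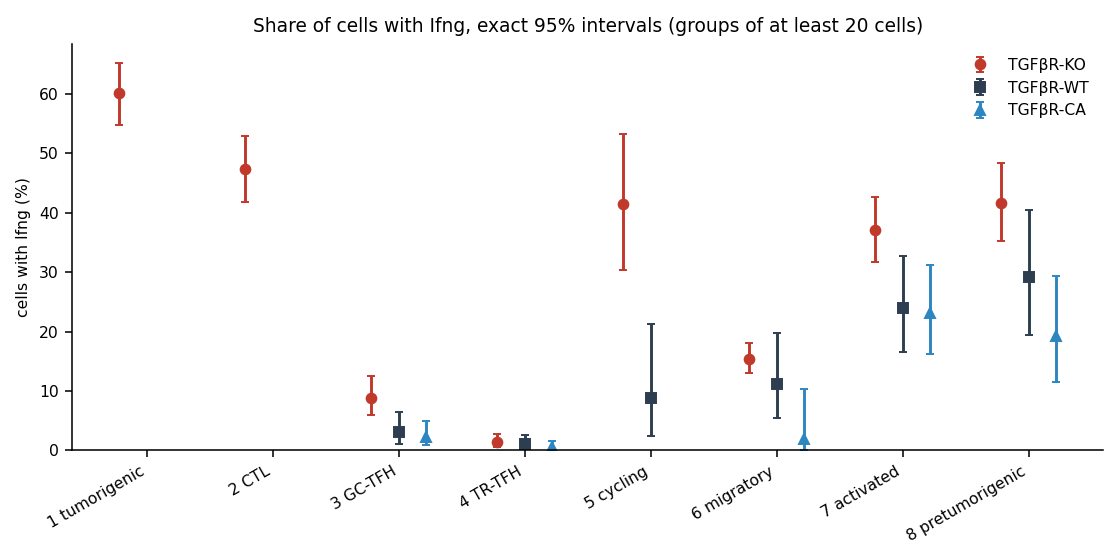
Share of cells with *Ifng* (percent, exact 95% intervals) in each cluster for TGFβR-KO, TGFβR-WT and TGFβR-CA, in groups of at least 20 cells. The share runs from 1.35% in TGFβR-KO TR-TFH cells to 60.1% in the tumorigenic cluster, and the intervals of TGFβR-KO and TGFβR-WT are apart in the cycling cluster only, at 41.6% and 8.89%.

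The order of the clusters for *Tbx21* resembled that for *Ifng*, with the pretumorigenic and CTL clusters as exceptions. Among TGFβR-KO cells its share was as high in the CTL (21.5%, 17.1 to 26.4) as in the tumorigenic cluster (19.7%, 15.7 to 24.1), and it was low in the pretumorigenic cluster (5.22%, 2.72 to 8.94), where *Ifng* was high. In the pretumorigenic cluster the *Tbx21* level in TGFβR-KO (0.184, 16 UMIs) did not exceed that in TGFβR-WT (0.239, 7 UMIs). *Tbx21* was higher in TGFβR-KO in the activated cluster, with 24 of 318 cells (7.55%, 4.90 to 11.02) against 1 of 117 TGFβR-WT (0.855%, 0.0216 to 4.67) and 1 of 130 TGFβR-CA cells. In the migratory cluster it was found in 45 of 831 TGFβR-KO cells (5.42%) and in 1 of 89 TGFβR-WT cells (1.12%, 0.0284 to 6.10), with overlapping intervals.

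*Il12rb2* was most frequent in the same TGFβR-KO clusters as *Tbx21*, with 14.6% of CTL cells (10.96 to 18.99), 15.6% of cycling cells (8.32 to 25.6) and 11.6% of tumorigenic cells (8.51 to 15.4). In the pretumorigenic cluster it was found in 2 of 230 cells (0.870%), below its share in TR-TFH cells (1.35%), and cannot be told from background there. In the activated cluster 15 of 318 TGFβR-KO cells (4.72%, 2.66 to 7.66) held it, against 0 of 117 TGFβR-WT cells, which allows up to 2.56%. *Stat4* had another order, with levels from 0.836 in cycling to 1.65 in GC-TFH cells of TGFβR-KO, 1.13 in the tumorigenic and 1.17 in the CTL cluster.

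*Runx3* was highest in the tumorigenic (3.14) and CTL (3.12) clusters of TGFβR-KO and lowest in GC-TFH cells (0.698). Within the activated cluster its level was 2.42 in TGFβR-KO cells, 2.70 in TGFβR-WT cells and 1.80 in TGFβR-CA cells, and within the pretumorigenic cluster 2.24, 2.49 and 1.57. The TGFβR-KO level was therefore not above TGFβR-WT in these clusters, while the TGFβR-CA level was below both TGFβR-WT sets in GC-TFH, TR-TFH, activated and pretumorigenic cells (ratios of 0.637, 0.575, 0.680 and 0.643 to all TGFβR-WT cells). The lower limit was passed by 5.2%, 3.81%, 8.23% and 15.1% of genes in these clusters, and by *Runx3* in all but the activated cluster, though in each of these 3 clusters it missed the limit against 1 of the sets (0.784 against the smaller set in GC-TFH, 0.671 and 0.848 against the larger set in TR-TFH and pretumorigenic cells). In TR-TFH cells *Runx3* was found in 24.1% of TGFβR-KO (20.5 to 28.0), 15.2% of TGFβR-WT (12.1 to 18.8) and 9.89% of TGFβR-CA cells (7.54 to 12.7).

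*Hopx* was high in the tumorigenic (4.26) and CTL (4.43) clusters and at 0.999 in the pretumorigenic cluster of TGFβR-KO. In the activated cluster the order was inverted, with 1.60 in TGFβR-KO cells, 2.45 in TGFβR-WT cells (2.02 and 3.58) and 4.15 in TGFβR-CA. *Zeb2* was the member that parted the tumorigenic from the CTL cluster in the same direction as *Ifng*, with 19.4% (15.4 to 23.9) against 10.3% (7.18 to 14.1) of TGFβR-KO cells.

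Detection of the regulators was then compared between cells with and without *Ifng*. Over all TGFβR-KO cells, *Tbx21* was found in 18.8% of the 778 cells with *Ifng* (16.1 to 21.7) and 5.01% of the 2197 cells without (4.13 to 6.003), and 57.0% of *Tbx21* cells held *Ifng*. *Il12rb2* (11.2% against 3.05%), *Zeb2* (13.8% against 3.96%) and *Hopx* (55.5% against 27.4%) were also more frequent with *Ifng*, *Runx3* less so (57.2% against 39.8%), and *Stat4* was not (36.6% against 36.9%). *Tbx21*, *Il12rb2*, *Zeb2* and *Hopx* had a ratio of shares of at least 1.5, which 7.78% of the genes in at least 20 cells reached. For this ratio, 0.5 was added to the cells with and to the cells without the gene, which lowers it where few cells are positive. *Eomes* and *Ifng* were found together in 3 cells. The median number of detected genes was 1518.5 in cells with *Ifng* and 1479 in those without.

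In the tumorigenic cluster alone the ratio of shares was higher than over all cells for *Tbx21* (4.38 against 3.74), little changed for *Il12rb2* (3.74 against 3.66) and *Hopx* (2.08 against 2.02) and lower for *Zeb2* (2.38 against 3.47). Its cells with *Ifng* had fewer detected genes (median 1396) than those without (1488.5). *Tbx21* was found in 28.6% of the 217 cells with *Ifng* (22.7 to 35.1) and 6.25% of the 144 without (2.90 to 11.5), and 87.3% of the *Tbx21* cells held *Ifng*, where 60.1% of all cells did. By the ratio of shares *Tbx21* ranked 12 of 5788 genes, 6.31% of which reached 1.5. *Hopx* was found in 77.0% (70.8 to 82.4) against 36.8% (28.9 to 45.2), *Zeb2* in 25.3% (19.7 to 31.7) against 10.4% (5.95 to 16.6) and *Il12rb2* in 16.6% (11.9 to 22.2) against 4.17% (1.54 to 8.85). *Runx3*, high in the whole cluster, was equal in both (63.6% and 63.2%), as was *Stat4* (32.3% and 35.4%). *Il17a*, the TH17 cytokine gene, went the other way, with 9.22% (5.72 to 13.9) in cells with *Ifng* and 21.5% (15.1 to 29.1) in those without, and 13.6% of genes were as much less frequent with *Ifng* as the limit of 1.5 asks.

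In the CTL cluster, where *Tbx21* was as frequent, the shares with and without *Ifng* lay closer together, and the difference between the clusters was not tested. *Tbx21* was found in 23.7% of its 152 cells with *Ifng* (17.2 to 31.3) and 19.5% of its 169 cells without (13.8 to 26.3), *Hopx* in 65.1% and 60.9%, and *Il12rb2* in 15.8% and 13.6%, all with overlapping intervals. *Zeb2* was in 14.5% (9.30 to 21.1) against 6.51% (3.29 to 11.3), which also overlap, and its ratio of shares (2.17) passed 1.5, as did that of 8.31% of genes. In the pretumorigenic cluster *Tbx21* was found in 10 of 96 cells with *Ifng* (10.4%, 5.11 to 18.3) and 2 of 134 without (1.49%, 0.181 to 5.29), so 86 cells with *Ifng* showed no *Tbx21* UMI, and *Hopx* was in 35.4% (25.9 to 45.8) against 17.2% (11.2 to 24.6), where 6.43% of genes reached a ratio of 1.5. In GC-TFH cells *Tbx21* was in 10 of 28 cells with *Ifng* (35.7%, 18.6 to 55.9) and 2.07% of those without, in a group where 25.2% of genes reached the ratio. In the migratory cluster *Hopx* was more frequent with *Ifng* (45.3%, 36.5 to 54.3, against 29.2%, 25.8 to 32.7), as were 9.94% of genes by a ratio of 1.5, and in the activated cluster the shares of *Tbx21* were close (8.47% and 7.0%).

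**Figure D4:**
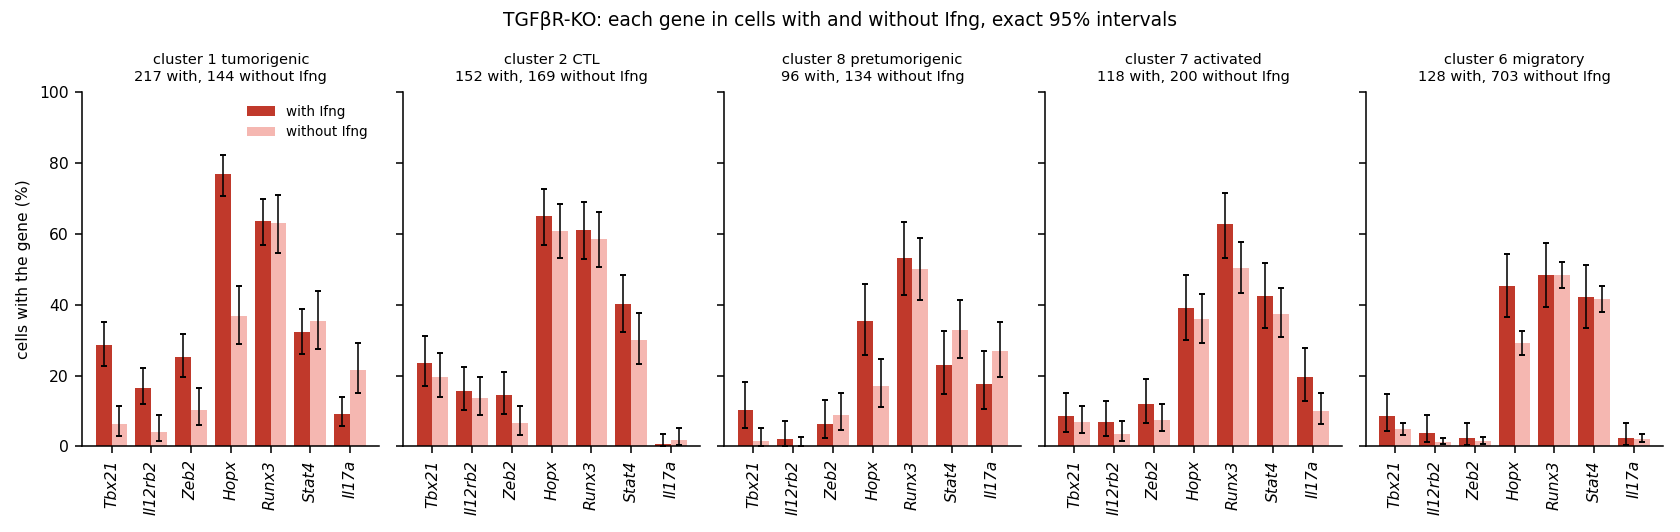
Share of TGFβR-KO cells with each gene (percent, bars from 0 with exact 95% intervals) among cells with *Ifng* (dark) and without it (light) in 5 clusters. In the tumorigenic cluster the dark bars of *Tbx21*, *Il12rb2*, *Zeb2* and *Hopx* stand above the light ones and that of *Il17a* below, while in the CTL cluster the intervals of each pair overlap.

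The shares were then read by the amount of *Ifng* in a tumorigenic cell. *Tbx21* was found in 6.25% of cells with no *Ifng* UMI, 13.9% of the 36 cells with 1, 20.4% of the 49 cells with 2 to 4, 31.1% of the 45 cells with 5 to 9 and 37.9% of the 87 cells with 10 or more. *Hopx* went from 36.8% over 44.4%, 73.5% and 84.4% to 88.5% across these groups. *Zeb2* (10.4%, 13.9%, 20.4%, 35.6% and 27.6%) and *Il12rb2* (4.17%, 11.1%, 14.3%, 22.2% and 17.2%) were highest in cells with 5 to 9 UMIs. *Runx3* was found in 55.6% to 65.5% of cells, with no order, but its level went from 2.72 over 2.81, 3.15 and 3.60 to 3.75, and *Stat4* was found in 31.0% to 36.1%. In the CTL cluster *Tbx21* was in 19.5%, 18.1%, 23.2%, 38.9% (7 of 18 cells) and 50% (3 of 6 cells) across the same groups, with wide intervals in the last 2. In the tumorigenic cluster the number of detected genes did not go up with *Ifng*. Its median was 1363 in cells with 10 or more *Ifng* UMIs and 1488.5 in those with none. In the CTL cluster the median was 1390 in cells with none, 1636 in those with 5 to 9 and 1594 in those with 10 or more. The part of detected genes in the CTL shares of *Tbx21* was not tested.

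**Figure D5:**
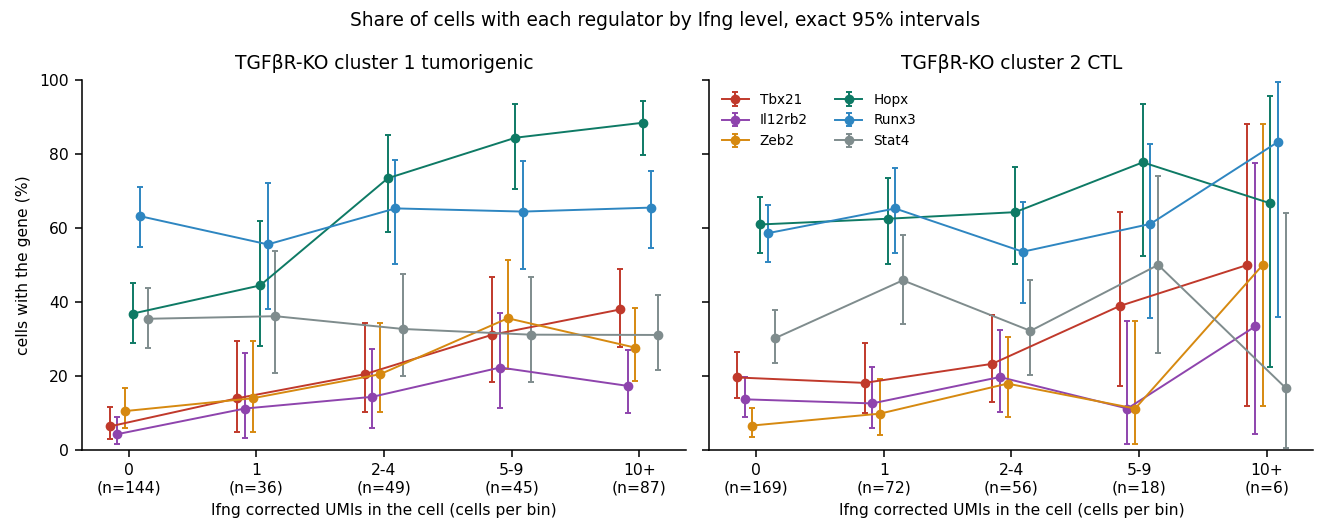
Share of cells with each regulator (percent, exact 95% intervals) by the number of *Ifng* corrected UMIs in the cell, in the tumorigenic and CTL clusters of TGFβR-KO, with the number of cells under each group. In the tumorigenic cluster *Tbx21* goes from 6.25% to 37.9% and *Hopx* from 36.8% to 88.5% while the shares of *Runx3* and *Stat4* show no order, and the CTL cluster has only 6 cells in its top group.

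The share of cells with *Il17a* differed between conditions, in cells with and without *Ifng*. Among cells with *Ifng*, *Il17a* was found in 9.38% in TGFβR-KO (7.43 to 11.7), 44.2% in TGFβR-WT (33.5 to 55.3) and 69.0% in TGFβR-CA (55.5 to 80.5). Within the activated cluster the shares were 19.5% (12.8 to 27.8), 64.3% (44.1 to 81.4) and 83.3% (65.3 to 94.4), and within the pretumorigenic cluster 17.7%, 69.6% and 87.5%, in the same order. In cells without *Ifng* of the activated cluster, *Il17a* was found in 10.0% (6.22 to 15.0), 55.1% (44.1 to 65.6) and 52.0% (41.8 to 62.1), so the gap between TGFβR-KO and the other conditions was not particular to cells with *Ifng*. *Tbx21* was in 4.65% of the 86 TGFβR-WT and 5.17% of the 58 TGFβR-CA cells with *Ifng*, against 18.8% in TGFβR-KO.

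In the TGFβR-KO tumorigenic cluster, the 5 genes with the highest ratio of shares between cells with and without *Ifng* were *Ccl4*, a chemokine gene (16.6% against 0.694%), *S1pr5*, a sphingosine-1-phosphate receptor gene that T-BET is known to induce (ratio 9.09), *Kcnj8*, a potassium channel gene (5.99), *Chsy1*, a chondroitin synthase gene (5.90), and *Klrg1*, a receptor gene of terminal effector cells (24.9% against 4.17%). Across the 19 groups of cluster and condition with at least 30 cells, the levels most alike to *Ifng* were those of *Nkg7* (Spearman's rho 0.954), *Fasl* (0.923), *Hip1* (0.918), *Furin* (0.904) and *Bhlhe40* (0.9). *Tbx21* was at rank 72 of 9809 (0.753), *Runx3* at 98, *Zeb2* at 181, *Il12rb2* at 327, *Hopx* at 1099 and *Stat4* at 7112 (-0.321). Most alike to *Tbx21* were *Rbm47* (0.821), *Ermn* (0.809), *Cxcr3* (0.807), *Gpc1* (0.785) and *Cdk1* (0.784), with *Ifng* at rank 9 and *Il12rb2* at rank 12. These groups share libraries and cluster definitions, so the values are descriptions.

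Other genes of the pathway were read from lists by role. On the IL-12 and IL-18 receptor side, 1 of 8 genes was higher in TGFβR-KO, *Il18rap*, which encodes the accessory chain of the IL-18 receptor (0.955 against 0.196 in TGFβR-WT, ratio 3.56), and 1 was lower, the kinase gene *Jak2* (0.878 against 1.66, but not past the limit against the smaller TGFβR-WT set, at a ratio of 0.706). The list median was 1.11. On the IFNγ response side, 2 of 10 were higher, the receptor gene *Ifngr1* (2.73 against 1.08, and 6.54 in the tumorigenic cluster) and the guanylate-binding protein gene *Gbp2* (0.536 against 0.280, and a ratio of 1.48 against the smaller set), and 1 was lower, the other receptor chain *Ifngr2* (0.0409 against 0.175). The list median was 1.09, beside 0.918 over all genes.

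A list made for partners and targets of T-BET held 18 genes. It also holds *Klf6*, which the authors place upstream of *Tbx21*, so its count does not measure what T-BET induces. Of the 18, 16 have a row. In TGFβR-KO 9 were higher, each also against both TGFβR-WT sets, and 0 were lower, with a median ratio of 1.96. The 9 included the chemokine gene *Ccl5* (19.6 against 1.05, and 124 in the CTL cluster), *Id2*, an inhibitor of E proteins (11.5 against 6.18), and *Furin*, a protease gene (8.24 against 3.94). Also among them were *Nkg7*, a cytotoxic granule gene (3.45 against 0.497), *Bhlhe40*, a transcription factor gene (3.06 against 0.715), and *Cxcr3*, the TH1 chemokine receptor gene (1.30 against 0.382). In TGFβR-CA 3 genes of the list, *Ccl5*, *Id2* and *Furin*, were lower. This list was chosen with results of these cells known, so its count is not independent evidence. Among 9 other cytokine genes, 5 were higher in TGFβR-KO, 3 of them against both TGFβR-WT sets, among them *Il22* (6.76 against 1.05), and 2 were lower, against both sets, *Il21* (0.428 against 1.06) and *Il10*. The median ratio was 1.54. *Il17a* had a level of 1.90 in TGFβR-KO, between the larger (1.29) and the smaller (5.73) TGFβR-WT set. Among 8 factors of opposing lineages, 1 was higher, *Rora* (5.66 against 3.03), and 3 were lower, *Maf* (12.7 against 22.9), *Tcf7* (0.909 against 1.66) and *Bcl6* (0.411 against 0.833, and a ratio of 0.746 against the smaller set). The median ratio was 0.713. Over all genes, 2.74% were higher and 4.7% lower, which holds beside each of these list counts.

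Over all cells with the active type I receptor, no TH1 gene passed the limit upwards. Of the 7 genes, 0 were higher and 2 lower in TGFβR-CA, *Ifng* and *Runx3*, where 1.21% of all genes were higher and 2.55% lower, and the median ratio was 0.917 beside 0.949 over all genes. At the TGFβR-WT cluster shares *Ifng* stayed past the limit (0.611), which 2.06% of genes passed downwards there, and *Runx3* did not (0.735). *Hopx* had a ratio of 1.30, but 0.922 against the smaller TGFβR-WT set. Within clusters it passed the limit upwards in activated (1.67) and TR-TFH cells (1.52), as did 3.67% and 1.52% of genes, but not against the smaller set (1.16 and 1.17). The comparison of TGFβR-CA with TGFβR-WT uses the same TGFβR-WT cells as that of TGFβR-KO. TGFβR-KO and TGFβR-CA were sequenced in separate batches, each with its own TGFβR-WT sample. The TGFβR-WT group pools both batches, and condition and library cannot be told apart.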

How the data were processed

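YFP+CD4+ T cells were profiled by droplet-based single-cell RNA sequencing. Per the methods, the authors counted UMIs with Cell Ranger on mm10 (version 3.1.0 per the submitters' processing notes), filtered cells by detected genes and mitochondrial share, normalized with SCTransform in Seurat, integrated and clustered the cells and removed γδ T and epithelial cells. Doublet removal is not given in the sources used here, and no caller was run. Each deposited value is ln(1 + UMI), a natural log of the number that SCTransform corrected. Undoing the log gave whole numbers within 1e-06 for all 7880276 values above 0. Correction sets cells to a common depth, so original depths are unknown.

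Levels are summed corrected UMIs of a gene per 10000 of the group. Ratios of levels were taken after adding 0.1, over genes with at least 50 corrected UMIs over all cells. For ratios of shares between cells with and without *Ifng*, 0.5 was added to the cells with and to the cells without the gene. Ratios of shares between conditions had nothing added. Shares carry exact Clopper-Pearson 95% intervals, and a count of 0 the limit of 3 counts. No count test was run, because the unit is a corrected value and TGFβR-WT, the only condition with 2 samples, has no map from cells to samples. TGFβR-KO cells were identified by the name prefix R, the other prefixes matching other sample titles. The genes and lists, and the markers, were chosen with earlier results of these data known. Besides the members, genes were named as the 5 most alike in profile, the 5 with the highest ratio of shares, or list members, of which those past the limit were picked after their values were seen. Promoters come from RefSeq. Scripts used Python 3.11.15, NumPy 2.4.6 and SciPy 1.17.1 and were tested on simulated data.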

Additional observations from a re-analysis of the deposited data

Results flagged for a closer look

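*Ifngas1*, the long noncoding RNA gene beside *Ifng* (chr10:118502035-118556525, minus strand), is not among the regulators compared above, and it had UMIs in TGFβR-KO cells. It was found in 28 of 2975 TGFβR-KO cells (0.941%, 0.626 to 1.36), and in 0 of 1007 TGFβR-WT and 0 of 1098 TGFβR-CA cells, which allow up to 0.298% and 0.273%. Of the 28 cells, 16 were in the CTL cluster (4.98%, 2.88 to 7.97), which has only 13 TGFβR-WT and 3 TGFβR-CA cells. The tumorigenic cluster, which held most *Ifng* UMIs, had 1, and 11 of the 28 also held *Ifng*.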

How the results depend on the processing

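No paired analysis was possible because only TGFβR-WT has more than 1 sample and its cells carry no sample name, and no sample could be left out. The TGFβR-KO log2 ratio of *Ifng* was 2.61, and 2.86 without cells holding a marker of other cells (2696 cells, mostly for *Cst3*), 2.09 with 0.5 added, 1.12 at TGFβR-WT cluster shares, 1.51 without cluster 1 and 1.38 without clusters 1 and 2. The 6 members higher in TGFβR-KO became 1 with 0.5 added and 3 under each of the last 3 settings. *Hopx* turned to a log2 ratio of -0.21 at TGFβR-WT cluster shares and -0.032 without clusters 1 and 2. For TGFβR-CA, the *Ifng* log2 ratio went from -0.79 to -0.46 with 0.5 added, and the 2 lower members to 0 with 0.5 added and 1 at TGFβR-WT cluster shares. Genes past the limit in TGFβR-KO (730) were 1685 against the smaller set, 219 with 0.5 added and 225 at a ratio of 2. In TGFβR-CA (369) they were 591 and 923 against the larger and the smaller set, 566 without marker cells, 76 with 0.5 added and 72 at a ratio of 2. The cause was not tested beyond what each setting removes. The *Tbx21* difference in the tumorigenic cluster (22.3 points) moved under none of the settings tried, which included tiers of detected genes. Leaving out cluster 1, clusters 1 and 2, and thinning were chosen after seeing the data. Shares of a few cells limit *Il12rb2*, *Tbx21* and *Eomes* outside TGFβR-KO.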
